A study of Mus musculus with 6 samples.

Results

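The leukotriene and lipoxygenase pathway was followed through 8 mouse genes, Alox5, Alox5ap, Lta4h, Ltc4s, Alox12, Alox15, Ltb4r1 and Cysltr1, taken by gene name from a table of 54532 genes. All 8 had exactly 1 row. Expression was measured by RNA sequencing of splenic T cells of C57BL/6 mice (6 to 8 weeks old), taken with a pan T-cell kit, grown in 10 ng/mL IL-2 and pre-activated with anti-CD3 and anti-CD28 beads over 72 h. The T cells were then co-cultured with ID8, an ovarian cancer line of the mouse, for a time that is not given in the sources used here. In 3 libraries (cisplatin) the ID8 cells had been pretreated with 40 µM cisplatin, a platinum drug that crosslinks DNA, and in 3 libraries (control) with PBS. The drug was thus given to the tumour cells before the co-culture. No library of T cells without ID8 cells, or of ID8 cells alone, was analysed here.

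Leukotrienes are lipid messengers made from arachidonic acid that phospholipases release from membranes. 5-Lipoxygenase (Alox5), working with its activating protein FLAP (Alox5ap), turns arachidonic acid into leukotriene A4, which leukotriene A4 hydrolase (Lta4h) converts to leukotriene B4 and leukotriene C4 synthase (Ltc4s) to leukotriene C4. Leukotriene B4 attracts leukocytes through the receptor BLT1 (Ltb4r1), and the cysteinyl leukotrienes act on CysLT1 (Cysltr1). Alox12 and Alox15 encode the platelet-type 12-lipoxygenase and the 12/15-lipoxygenase, which oxygenate arachidonic acid at other carbons. The complete synthesis route is typical of neutrophils, macrophages, mast cells and eosinophils rather than of T cells.

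The table holds FPKM, fragments scaled by the authors for gene length and library size, so levels of different genes can be compared per length. Between 30606569 and 32169496 reads fell on genes in each library, as rebuilt from the FPKM. The T-cell label was checked on the levels of 22 T-cell markers. These summed to 3182 to 3254 FPKM in the cisplatin libraries and 2009 to 2136 FPKM in the control libraries. Of them, 22 were tested and 22 were higher with cisplatin by limma (adjusted p below 0.05), though 0 by 2-fold. By that p-value alone, 27.5% of all tested genes were higher. The median log2 fold change of the 22 markers was 0.60. Markers of other cells were present too. The 20 ID8 tumour markers summed to 245 to 253 FPKM with cisplatin and 1564 to 1642 FPKM in control, and the 12 B-cell markers to 3641 to 3713 and 1703 to 1791 FPKM. Ighm, the immunoglobulin M heavy chain, made most of the B-cell sum, and the other 11 markers summed to 439 to 474 FPKM against 308 to 323 FPKM. The values below are therefore levels in a mixture of cells, and in such bulk RNA fewer cells of a type and less RNA per cell cannot be told apart.

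The groups were compared by limma on log2(FPKM + 0.1). This took in the 15874 genes whose FPKM averaged 0.5 or more across all 6 libraries. The added 0.1 makes the fold change of a low gene come out too small. Calling a gene took a 2-fold change or more and a p-value under 0.05 after Benjamini-Hochberg adjustment. Of the 8 genes, 5 passed the filter on low values, and Cysltr1, Ltc4s and Alox15 did not. Of these 5, 1 was called higher with cisplatin (Alox5) and 1 lower (Alox12), where 16.9% of all tested genes were called, 4.11% as higher and 12.8% as lower. Without the fold minimum, Lta4h also passed, giving 2 higher and 1 lower. By that rule 56.5% of all tested genes passed, 27.5% higher and 29.0% lower, so a pass without the fold minimum was common in this comparison. The 5 tested leukotriene genes had a median log2 fold change of 0.18, beside 0.03 for all genes in the test. Alox12 passed the filter through the control libraries alone. The other 4 tested genes held 1 higher and 0 lower calls, with a median of 0.20.

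**Figure D1:**
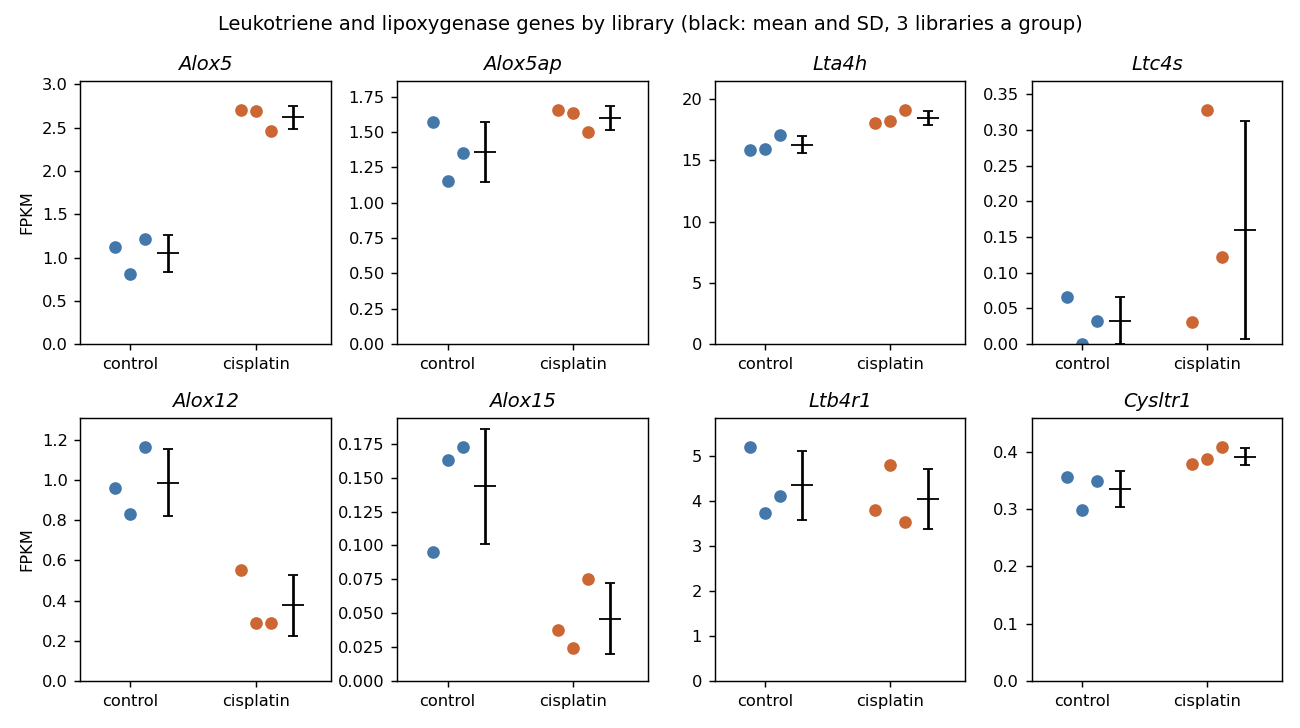
FPKM of each of the 8 genes (vertical axis, from 0, with its own range in each panel) in the 3 control libraries (blue) and the 3 cisplatin libraries (orange), with the mean and SD of each group in black. Alox5 separates upwards and Alox12 downwards with cisplatin, Lta4h has the highest level at 15.9 to 19.1 FPKM, and Ltc4s and Alox15 stay under 0.33 FPKM in every library.

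Among the genes of leukotriene synthesis, 1 was called, Alox5. Alox5 (ENSMUSG00000025701, minus strand of chromosome 6 from 116410077 to 116461178 of GRCm38) had 2.70, 2.69 and 2.46 FPKM in the cisplatin libraries and 1.12, 0.812 and 1.21 FPKM in the control libraries. The lowest cisplatin library was above the highest control library. These levels rest on 328 to 366 rebuilt reads a library with cisplatin and 100 to 153 in control. Alox5 went up from 1.05 ± 0.210 to 2.62 ± 0.133 FPKM (SD, n = 3 each). On the log2 scale it moved by 1.26 (SE 0.17, limma adjusted p = 7.0e-04), which is 2.39-fold. With each library centred on the myeloid markers described further on, the call ended and the value was -0.044 (limma adjusted p = 0.82). Of the 12 tested markers used there, 3 passed the filter through the cisplatin libraries alone, so the sign of this value is not read.

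Alox5ap, the membrane protein that hands arachidonic acid to 5-lipoxygenase, was not called. On the plus strand of chromosome 5 from 149264767 to 149288153, Alox5ap (ENSMUSG00000060063) had 1.65, 1.64 and 1.50 FPKM with cisplatin and 1.57, 1.15 and 1.35 FPKM in control. The ranges overlapped at 1 control library. Its log2 fold change was 0.23 (95% confidence interval -0.13 to 0.59, limma adjusted p = 0.24), so a rise by more than 0.59 lies outside the interval. Centred on the T-cell, B-cell or myeloid markers it was -0.36, -0.19 and -1.08. All 3 centrings shift every gene downwards, and the last includes markers that passed the filter through the cisplatin libraries alone. Within each library, Alox5 FPKM divided by Alox5ap FPKM was 1.63, 1.64 and 1.64 with cisplatin and 0.712, 0.706 and 0.897 in control. This ratio needs no scaling between libraries. It was picked, like the other ratios given here, after the values were seen, and carries no test. Alox5ap shares 189 exonic bases with the antisense gene Gm19719, and strand use in counting is not given in the sources used here. Gm19719 itself had at most 0.0158 FPKM in any library.

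Lta4h was the most abundant of the 8 genes. Lta4h (ENSMUSG00000015889, plus strand of chromosome 10 from 93453411 to 93484875) had 18.0, 18.2 and 19.1 FPKM with cisplatin and 15.9, 15.9 and 17.1 FPKM in control, with 2908 to 3773 rebuilt reads a library. Its mean over the 6 libraries, 17.4 FPKM, lay at percentile 89.9 of all genes with any read. The groups did not overlap, but the difference was small, with a log2 fold change of 0.18 (95% confidence interval 0.07 to 0.29, limma adjusted p = 0.014), under the fold minimum. Centred on the T-cell, B-cell or myeloid markers it turned to -0.41, -0.24 and -1.13, so its direction rests on the scaling. The myeloid centring includes markers that passed the filter through the cisplatin libraries alone. Lta4h made up 62.9% to 69.5% of the summed FPKM of the 8 genes in every library. The Lta4h transcript was 14.0 to 19.6 times as abundant as that of Alox5 in the control libraries and 6.67 to 7.74 times in the cisplatin libraries.

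Ltc4s, the enzyme of the cysteinyl branch, was close to the limit of detection. Ltc4s (ENSMUSG00000020377, minus strand of chromosome 11 from 50236461 to 50238616) had 0.0305, 0.327 and 0.122 FPKM with cisplatin, from 1, 11 and 4 rebuilt reads. In control it had 0.0657, 0 and 0.0321 FPKM, from 2, 0 and 1 rebuilt reads. The groups overlapped, and 3 reads, the limit that a count of 0 allows, would be 0.0987 FPKM in the control library without any. A difference was not detectable at this depth (two-sided exact permutation test of the group means of log2(FPKM + 0.1), p = 0.3, where 0.1 is the smallest p that 3 libraries against 3 allow). Of its exonic bases, 268 are shared with the antisense gene Gm26542, which had 15 to 19 rebuilt reads with cisplatin and 11 in each control library. Reads of both genes cannot be told apart if strand was not used.

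Among the other lipoxygenases, Alox12 fell. Alox12 (ENSMUSG00000000320, minus strand of chromosome 11 from 70241457 to 70255353) had 0.552, 0.288 and 0.287 FPKM with cisplatin and 0.962, 0.833 and 1.16 FPKM in control. The first cisplatin library stood above the other two, and all 3 lay under the lowest control library. The rebuilt reads were 73, 39 and 38 with cisplatin and 118, 102 and 146 in control. The gene decreased from 0.987 ± 0.167 to 0.376 ± 0.153 FPKM (SD, n = 3 each). On the log2 scale it moved by -1.23 (SE 0.31, limma adjusted p = 0.015). Alox12 passed the filter on low values through the control libraries alone, since its cisplatin mean is below 0.5 FPKM, and so had to differ. The call was lost without control library 3, where the log2 fold change was -1.11 and the adjusted p-value from limma 0.059. It was also lost under quantile normalization (-0.99) and at a pseudocount of 1 (-0.53), where the fold minimum was missed.

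Alox15 was found at a handful of reads. Alox15 (ENSMUSG00000018924, minus strand of chromosome 11 from 70344152 to 70352031), on the same strand as Alox12, had 0.0378, 0.0246 and 0.0754 FPKM with cisplatin, from 3, 2 and 6 rebuilt reads. In control it had 0.0950, 0.163 and 0.173 FPKM, from 7, 12 and 13 rebuilt reads. The groups did not overlap, at the smallest p possible (two-sided exact permutation test, p = 0.1). With no filter on low values, limma gave a log2 fold change of -0.74 (adjusted p = 0.12), which misses the threshold. No 50-base stretch of Alox15 transcripts occurs in a transcript of another gene of GENCODE M21, and 0.372% of those of Alox12 do, none of them in a lipoxygenase.

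Alox5 and Alox12 oxygenate the same fatty acid at different carbons. Their log2 fold changes had opposite signs, except when centred on the myeloid markers, where both values were below 0. There Alox5 was at -0.044 (limma adjusted p = 0.82), so its sign is not read. That centring also includes markers that passed the filter through the cisplatin libraries alone. Alox12 in turn passed it through the control libraries alone, so the contrast carries no test. Alox5 FPKM divided by Alox12 FPKM was 1.16, 0.975 and 1.04 in the control libraries and 4.89, 9.34 and 8.59 in the cisplatin libraries. In control, the levels of Alox5ap, Alox5 and Alox12 lay next to each other, at means of 1.36, 1.05 and 0.987 FPKM, and the ranges of neighbours in that order overlapped. With cisplatin, the ranges of Lta4h, Ltb4r1, Alox5 and Alox5ap were all apart, in that order from the highest, and those of Cysltr1, Alox12 and Ltc4s overlapped with their neighbours below them.

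Of the receptors, Ltb4r1 was not called on the scale as deposited, and Cysltr1 lay under the filter and was not tested there. Ltb4r1, which encodes the high-affinity receptor of leukotriene B4, was the second most abundant of the 8 genes. Ltb4r1 (ENSMUSG00000046908, plus strand of chromosome 14 from 55765962 to 55768494) had 3.81, 4.81 and 3.54 FPKM with cisplatin and 5.21, 3.73 and 4.11 FPKM in control. The libraries of the groups were interleaved. Its log2 fold change was -0.10 (95% confidence interval -0.48 to 0.28, limma adjusted p = 0.63), an interval that holds for the scaling as deposited. Centred on the T-cell, B-cell or myeloid markers it was -0.68, -0.52 and -1.40 (limma adjusted p = 0.0080, 0.022 and 7.8e-05), and with the last of these it was called lower. These centrings moved the median of all tested genes to -0.56, -0.39 and -1.28. The myeloid centring called 10934 of all 15874 tested genes lower, and includes markers that passed the filter through the cisplatin libraries alone. A fall of Ltb4r1 is therefore not read from these values.

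Cysltr1, on the X chromosome from 106574346 to 106603679 (ENSMUSG00000052821, minus strand), was low and even. It had 0.379, 0.387 and 0.408 FPKM with cisplatin and 0.356, 0.298 and 0.349 FPKM in control, from 46 to 68 rebuilt reads a library. The groups did not overlap by a narrow margin, and their means on the log2(FPKM + 0.1) scale were 0.18 apart (two-sided exact permutation test, p = 0.1, the smallest possible). On the rebuilt reads, limma's voom gave a log2 fold change of 0.31 (adjusted p = 0.36), which did not pass. Over all 8 genes, 5 had groups that did not overlap, 3 higher and 2 lower with cisplatin. Among all genes with any read 37.5% had groups that did not overlap. Among tested genes it was 64.2%, and 3 of the 5 tested leukotriene genes.

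The related receptors were measured as well. Cysltr2, the second receptor of cysteinyl leukotrienes, was more abundant than Cysltr1 in every library, by 12.1 to 15.7 times per length. It had 5.46 ± 0.514 FPKM with cisplatin and 4.63 ± 0.851 FPKM in control (SD, n = 3 each), with a log2 fold change of 0.24 (limma adjusted p = 0.18). Ltb4r2, the low-affinity leukotriene B4 receptor that lies beside Ltb4r1 on chromosome 14, had at most 0.18 FPKM. The exons of Ltb4r1 and Ltb4r2 do not overlap in GENCODE M21.

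By the likeness of their profiles over the 6 libraries, the protein-coding genes closest to Lta4h were Jak2, a receptor-associated kinase, Mta2 and Bud31, with root mean square differences of 0.011, 0.020 and 0.021 log2 units after each profile was centred on its own mean. They were chosen among 7664 genes averaging 5 FPKM or more, and had log2 fold changes of 0.17, 0.19 and 0.16. For Ltb4r1 the closest were Ntmt1, Ublcp1 and Brms1, at 0.067, 0.10 and 0.11 log2 units. The profile of Lta4h was nearly flat over the libraries, and so were those of its neighbours.

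A wider list of 34 genes of the same pathway covered the release of arachidonic acid, other lipoxygenases, the glutathione branch, breakdown and further receptors. Of these, 17 passed the filter, and 2 were called higher and 6 lower, beside 4.11% and 12.8% of all tested genes. Without the fold minimum 4 were higher and 9 lower, beside 27.5% and 29.0%. Of the 17, 2 (Cmklr1 and Ggt1) passed the filter through 1 group alone. The other 15 held 1 higher and 5 lower calls, with a median log2 fold change of -0.51.

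**Figure D2:**
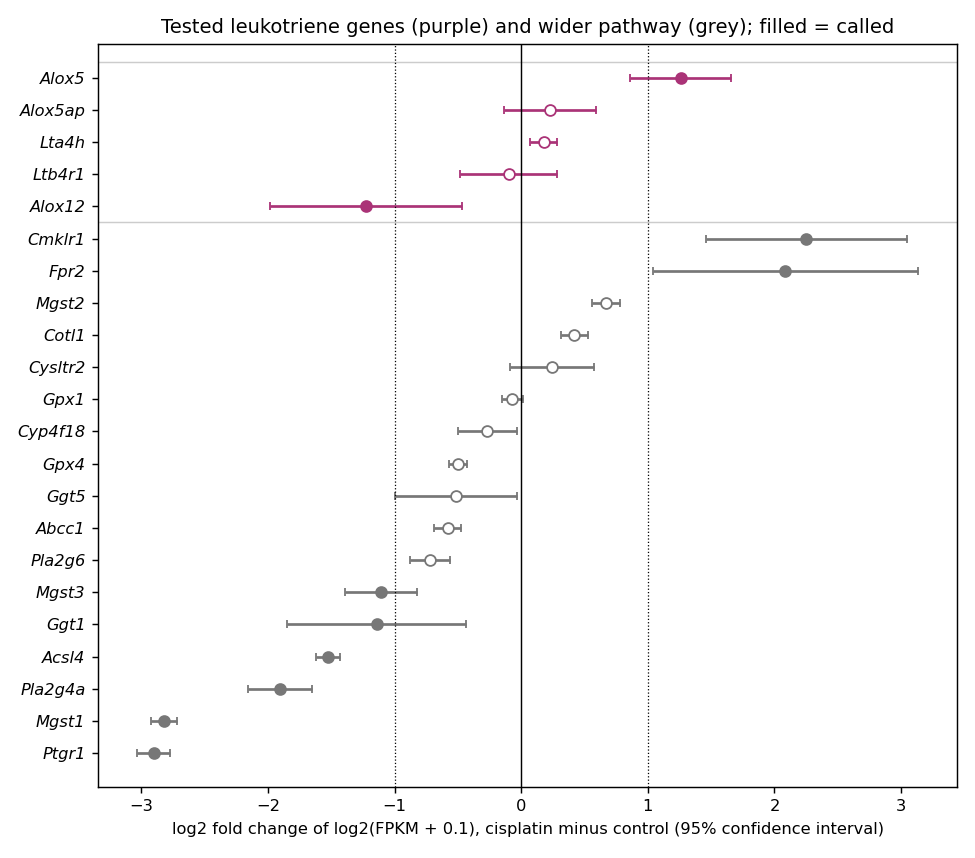
Log2 fold change with 95% confidence interval (horizontal axis, cisplatin minus control on the log2(FPKM + 0.1) scale) of the 5 tested leukotriene genes (purple) and the 17 tested genes of the wider list (grey). Filled points are called and dotted lines mark a log2 fold change of 1 in either direction. Alox5 and Alox12 lie on opposite sides on this scale (not when centred on the myeloid markers), and Ptgr1 and Mgst1 show the largest falls at -2.90 and -2.82.

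Upstream, Pla2g4a, which encodes the cytosolic phospholipase A2 that releases arachidonic acid, had 1.90, 2.11 and 1.61 FPKM with cisplatin and 7.14, 7.35 and 7.26 FPKM in control. The groups were far apart, with a log2 fold change of -1.91 (SE 0.10, limma adjusted p = 9.9e-06). Acsl4, a ligase that loads arachidonic acid onto coenzyme A, went down from 81.7 ± 1.86 to 28.3 ± 1.15 FPKM (SD, n = 3 each). Acsl4's log2 change was -1.53 (limma adjusted p = 3.8e-07). The mean level of Pla2g4a was thus above that of Alox5 in control and below it with cisplatin.

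In the glutathione branch, Mgst2, a microsomal glutathione transferase that can also form leukotriene C4, had 25.8, 25.6 and 25.7 FPKM in control and 39.1, 40.4 and 43.7 FPKM with cisplatin. It was far more abundant than Ltc4s in every library, and rose with a log2 fold change of 0.67 (limma adjusted p = 2.7e-05), under the fold minimum. The median changes of the T-cell, B-cell and myeloid markers were 0.60, 0.46 and 1.30. The part of the cell mixture in the rise of Mgst2 was not tested. Mgst1, a detoxifying enzyme of the same family, went down from 59.8 ± 2.53 to 8.35 ± 0.224 FPKM (SD, n = 3 each). The log2 change of Mgst1 was -2.82 (limma adjusted p = 8.3e-08). Ggt1, a gamma-glutamyl transferase that turns leukotriene C4 into D4, went down from 0.855 ± 0.194 to 0.329 ± 0.0514 FPKM (SD, n = 3 each). On the log2 scale it moved by -1.14 (limma adjusted p = 0.015). Ggt1 passed the filter through the control libraries alone, like Alox12, since its cisplatin mean is under 0.5 FPKM. The Ggt1 call was lost without control library 2 or control library 3, with adjusted p-values from limma of 0.055 and 0.064.

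Downstream, Ptgr1, an enzyme that inactivates leukotriene B4 and also acts on prostaglandins, had 12.1, 10.5 and 11.4 FPKM with cisplatin and 85.3, 87.2 and 84.1 FPKM in control. Its log2 fold change of -2.90 (limma adjusted p = 1.3e-07) was the largest fall of the list. Both higher calls were receptors. Fpr2, a formyl peptide receptor that also binds lipoxin A4, rose from 0.973 ± 0.660 to 4.06 ± 1.16 FPKM (SD, n = 3 each). Its log2 change was 2.09 (limma adjusted p = 0.0062). Its 48 exonic bases shared with Fpr3 on the same strand leave that value partly uncertain. Cmklr1, a receptor of chemerin and resolvin E1, rose from 0.271 ± 0.117 to 1.65 ± 0.423 FPKM (SD, n = 3 each). On the log2 scale it moved by 2.25 (limma adjusted p = 0.0012). Cmklr1 passed the filter through the cisplatin libraries alone, since its control mean is under 0.5 FPKM, and so had to differ. Centred on the myeloid markers, neither receptor was called, at 0.78 for Fpr2 and 0.95 for Cmklr1 (limma adjusted p = 0.12 and 0.027). That centring includes markers that passed the filter through the cisplatin libraries alone. How far the loss of these calls rests on such markers was not tested.

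The 4 remaining lipoxygenases of the list did not pass the filter. Alox8, Alox12b and Aloxe3 stayed at or under 0.36 FPKM in every library. Alox12e had no read in any library, which at 3 reads allows up to 0.0354 FPKM. A further 4 genes are given for their place in the pathway and were picked after their values were seen. Mgst3, a further microsomal glutathione transferase, was called lower with a log2 fold change of -1.11. Cotl1, a binding partner of 5-lipoxygenase, passed without the fold minimum with a log2 fold change of 0.42. Abcc1, an exporter of leukotriene C4, and Gpx4, which reduces lipid hydroperoxides, passed in the other direction with log2 fold changes of -0.58 and -0.50.

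Markers of other cell types moved between the groups beside these genes, and are given for comparison. Of 15 monocyte and macrophage markers, 12 were tested, 9 were called higher and 0 lower by limma (10 higher and 1 lower at an unadjusted p under 0.05), with a median log2 fold change of 1.30. Their summed level was 133 to 153 FPKM with cisplatin and 67.7 to 72.1 FPKM in control. Lyz2 had the highest level, and without it the sums were 51.3 to 55.5 and 36.9 to 39.5 FPKM. Adgre1, C1qa and Fcgr1 passed the filter through the cisplatin libraries alone, and the other 9 tested markers held 6 higher calls, with a median of 1.26. No marker of this list was at 0 in all libraries, and Cd163 had at most 0.0358 FPKM. The tested markers were not uniform. C1qb had a log2 fold change of 2.75, Cd68 of 0.0041 (limma adjusted p = 0.97) and Cd14 of -0.47 (limma adjusted p = 0.0038). Alox5 (log2 fold change 1.26) lay near the median of this spread. With each library centred on all 12 tested markers, the log2 fold change of Alox5 was -0.044, while that of Alox12 was -2.53. The 12 include the 3 that passed the filter through the cisplatin libraries alone. How far the centred values rest on those 3 was not tested. The part of macrophage RNA in the Alox5 result was not tested.

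Of 11 mast cell and basophil markers, 7 were tested and 3 called higher, where 4.11% of all tested genes were. Without the fold minimum, 4 were higher, 1 was lower and 2 did not pass (limma adjusted p under 0.05). Their median log2 fold change was 0.72, with sums of 36.9 to 42.3 FPKM against 21.8 to 26.6 FPKM. Of 11 neutrophil markers, 2 (Mpo and Elane) passed the filter, both through the cisplatin libraries alone, so nothing is read from their 2 higher calls. The 11 markers summed to 3.28 to 4.58 FPKM against 0.572 to 1.55 FPKM, and Ly6g, which marks mature neutrophils, had at most 0.0692 FPKM. The 7 eosinophil markers, of which 2 were tested and 0 called by limma (1 higher at an unadjusted p under 0.05), summed to 2.56 to 3.72 FPKM with cisplatin and 2.44 to 3.38 FPKM in control, and Ear1 was at 0 in all libraries. The 12 B-cell markers gave 1 call higher and 1 lower, and a median log2 fold change of 0.46. Of 7 dendritic cell markers 3 were tested and 1 called lower, with a median log2 fold change of 0.50 and Cd209a at 0. Without the fold minimum, 2 of these 3 were higher and 1 lower (limma adjusted p under 0.05). Of 4 NK-cell markers 3 were tested and 1 called higher, with a median of 0.64.

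For Alox12, the platelet-type enzyme, 8 platelet and megakaryocyte markers were compared. All were tested, 1 (Ppbp) was called lower, their median log2 fold change was -0.09, and none was at 0. Without the fold minimum, 1 was higher and 3 were lower (limma adjusted p under 0.05). They summed to 116 to 130 FPKM with cisplatin and 152 to 181 FPKM in control, and without Itgb3, the most abundant, to 81.9 to 94.6 and 93.3 to 123 FPKM, which overlap. Of the 20 ID8 tumour markers, 16 were tested and 12 called lower, with a median log2 fold change of -2.28, further from 0 than the change of Alox12. No tumour marker was at 0 in all libraries, and Krt19 was the most abundant at 52.9 ± 1.46 FPKM with cisplatin and 646 ± 18.1 FPKM in control (SD, n = 3 each). The part of platelet or tumour cell RNA in the Alox12 result, and in the falls of Pla2g4a, Acsl4, Mgst1, Ggt1 and Ptgr1, was not tested.

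**Figure D3:**
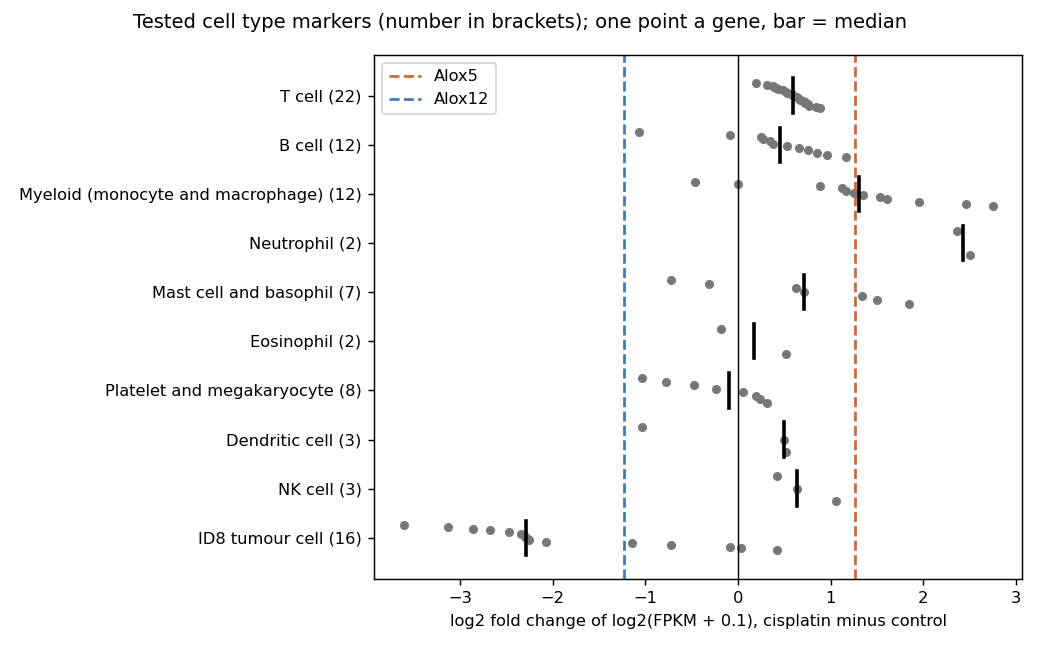
Log2 fold changes (horizontal axis, cisplatin minus control on the log2(FPKM + 0.1) scale) of the tested markers of 10 cell types, 1 point a gene, with the median of each list as a black bar and the number tested in brackets. The dashed lines mark Alox5 and Alox12. Alox5 lies beside the median of the monocyte and macrophage markers, 1.30, and Alox12 between the medians of the platelet and the tumour markers, -0.09 and -2.28.

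Both calls were read again under other scalings and filters. Alox5 had a log2 fold change of 0.68 after centring on the T-cell markers and of 0.84 after centring on the B-cell markers (limma adjusted p = 0.0093 and 0.0030), so it passed without the fold minimum in both. All 3 centrings shift every gene downwards, so the more negative values of Alox12 under them say nothing of its stability. Quantile normalization brought Alox12 under the fold minimum, and a pseudocount of 1 brought both genes under it, with Alox5 at 0.83.

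**Figure D4:**
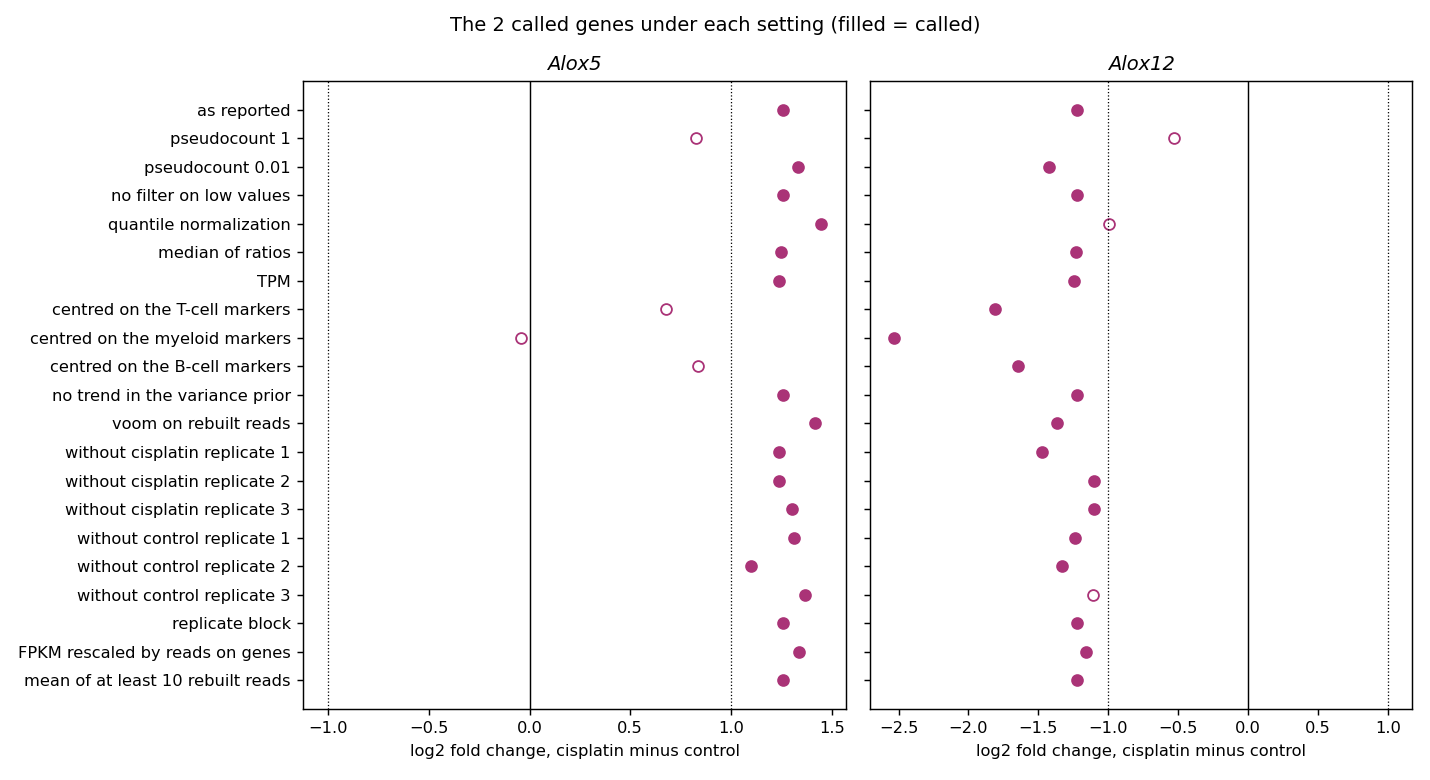
Log2 fold change (horizontal axis, cisplatin minus control) of Alox5 and Alox12 under each setting that tested them, 1 per line, with filled points where the gene was called. Alox5 ranges from -0.044 (centred on the myeloid markers) to 1.45 (quantile normalization), and Alox12 from -2.53 to -0.53.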

How the data were processed

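Total RNA was extracted with TRIzol, poly-A selected and sequenced at Novogene. Per the labels, the submitters' processing notes name fastp, HISAT2 2.0.5, featureCounts 1.5.0-p3 and mm10, while the paper's methods name LifeScope. The authors deposited FPKM values, counts divided by gene length and a library factor, together with a gene length in bases. Coordinates matched GENCODE M21 (GRCm38) for 53499 of 54409 shared genes. Strand use and multi-mapping reads are not given in the sources used here.

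FPKM times gene length was a whole multiple of 1 step per library for 100% of values (tolerance 0.1 read), which gave rebuilt reads. They cover counting error only. Libraries of a group were not identical and differed by more than sampling noise. Their separate origin is not given, so p-values measure the spread between these libraries.

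Tests used limma 3.58.1 (R 4.3.3, lmFit and eBayes with trend) with Benjamini-Hochberg adjustment over all tested genes. Single values used a two-sided exact permutation test (scipy 1.17.1). The fit was tested on simulated data. Named genes were the 8 genes, the called genes of the wider list (the 5 largest per direction) and relatives of the 8. The top marker of each list, some further markers and the 3 nearest profiles of the 2 most abundant genes were also named. Genes and lists were chosen with earlier results of these data known. Tables were handled with python 3.11.15 and pandas 2.3.3, and figures drawn with matplotlib 3.10.9.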

Additional observations from a re-analysis of the deposited data

How the results depend on the processing

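Alternatives were other pseudocounts, filters, scalings and centrings, no variance trend, limma's voom on rebuilt reads, no fold minimum, each library left out and the replicate number as a block. Those chosen after seeing the data were FPKM rescaled by reads on genes and a minimum of 10 rebuilt reads, and they changed no call among the 8 genes. Same-numbered libraries did not deviate together (correlations of deviations from the group means 0.02, -0.06 and -0.02), nor did every library correlate best with its own number. No pairing by number was thus seen. With so few libraries of unknown origin, the check cannot exclude a pairing. With the replicate block 651 genes were called higher and 2011 lower, against 653 and 2034, Alox5 and Alox12 stayed called (adjusted p = 0.0044 and 0.035 from limma), and the wider list kept 2 higher and 6 lower.

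Of the 8 genes, 0 were called higher and 0 lower at a pseudocount of 1, where Alox5 had 0.83 and Alox12 -0.53, and likewise at a minimum mean of 5 FPKM, which leaves only Lta4h tested. Quantile normalization left 0 called lower, with Alox12 at -0.99. The number called higher was 0 under each of the 3 centrings and 2 without the fold minimum. Centred on the myeloid markers, Alox5 was not called at -0.044 and 4 of the 5 tested leukotriene genes were called lower. With that centring 10934 of all 15874 tested genes were called lower, so a lower call was common there. The 4 leukotriene genes had log2 fold changes of -2.53 for Alox12, -1.08 for Alox5ap, -1.13 for Lta4h and -1.40 for Ltb4r1. The myeloid centring included Adgre1, C1qa and Fcgr1, which passed the filter through the cisplatin libraries alone. How far the calls near the fold minimum rest on these markers was not tested. Centred on the T-cell markers, Alox5 had 0.68, Alox5ap -0.36 and Lta4h -0.41. Centred on the B-cell markers these were 0.84, -0.19 and -0.24. The centrings moved the median of all tested genes to -0.56 (T cell), -1.28 (myeloid) and -0.39 (B cell), and quantile normalization to 0.16, from 0.03. Quantile normalization called 979 genes higher and 1790 lower. Ltb4r1 turned to 0.087 under quantile normalization and 0.036 without control library 1, and ranged from -0.22 to 0.036 with 1 library left out. Leaving out 1 library each gave 1 gene called higher, 0 to 1 called lower, 1.10 to 1.36 for Alox5 and -1.48 to -1.10 for Alox12.

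In the wider list, the genes called higher were 0 at a minimum mean of 5 FPKM and centred on the myeloid markers, and 4 without the fold minimum. Those called lower were 3, 13 and 9 in the same settings, and 10 centred on the T-cell markers. Mgst3 and Ggt1 were not called at a pseudocount of 1 or under quantile normalization. Over all genes, those called higher were 311 (pseudocount of 1), 242 (mean of 5 FPKM), 137, 36 and 210 (centred on the T-cell, myeloid and B-cell markers), 1127 (voom, with 2423 lower) and 4360 (no fold minimum). Those called lower were 903 (mean of 5 FPKM), 3782, 10934 and 3053 (the same centrings) and 4603 (no fold minimum). Depth limits Ltc4s, Alox15 and Alox12e, where 3 reads are worth 0.0320 to 0.0987 FPKM.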
